A study of Rattus norvegicus with 18 samples.

Results

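The transcripts described here are those with an Ensembl rat transcript ID, beginning with ENSRNOT, that have a value in all 3 groups of a kidney RNA sequencing study. They number 141 of the 6214 transcripts in the deposited files. The WKY and SHR files list 828 Ensembl transcripts and the SHR+Iso files list 658, and these 141 are the ones in both. Another 473 transcripts, known only by IDs of a merged assembly, are also listed for all groups.

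The 18 libraries come from kidneys of Wistar-Kyoto rats (WKY) given double distilled water, spontaneously hypertensive rats (SHR) given the same water, and SHR that received isoliensinine, 5 mg/kg each day, for which SHR+Iso stands below. There were 6 libraries to a group, after 10 weeks. The labels of the treated group name double distilled water as well as isoliensinine. Age is not given in the sources used here, and a p-value here weighs only the spread among these samples.

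WKY is the normotensive strain usually set against SHR, an inbred strain that develops high blood pressure with age without surgery or diet and in which kidney injury follows. Isoliensinine is a bisbenzylisoquinoline alkaloid of lotus seed. The series title places the work in TGF-β1/SMAD2/3 signalling, the pathway through which transforming growth factor beta drives matrix deposition in the injured kidney. A transcript is 1 splice form of a gene. When a gene has several forms, the software divides its reads among them, so a transcript's value can change because the gene's output changed or because reads went to another form. These 2 cases cannot be told apart here, nor can fewer cells of a type and less RNA per cell.

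The files pair no transcript with a gene name, and 0 of the 141 IDs matched the rat gene table used (assembly GRCr8). Gene functions, positions, sequences and the check of the tissue against kidney markers are therefore not given. The values are normalized abundances made by the authors, whose scale no header names, and are called values. Since correction for transcript length is not stated, values are compared between groups for the same transcript, not between transcripts. Depth is unknown, and the number of rats limits the precision. A log2 difference below is a difference of group means of log2(value + 1), which understates changes of low transcripts.

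Judged by the values, which transcripts were deposited depended on the comparisons described here. Of the 141, 0 had a strain difference (SHR minus WKY) under 0.25 in size on the log2 scale, and 0 a treatment difference (SHR+Iso minus SHR) of that size. The smallest were 0.28 and 0.30. Between SHR+Iso and WKY 94 of the 141 lay under 0.25. The SHR libraries stand in both of the comparisons that show this gap. The directions and numbers of calls below therefore describe transcripts that appear to be selected on differences from SHR. Whether the selection also bears on the spread within SHR was not tested. The p-values give no error rate for the kidney transcriptome.

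Most of these transcripts had low values. In SHR, 52 had a group mean below 1, 61 a mean from 1 to 10, 23 from 10 to 100 and 5 of 100 or more. The corresponding numbers were 61, 60, 15 and 5 in WKY and 62, 60, 14 and 5 in SHR+Iso. SHR had the highest median of the group means, 1.79, and WKY and SHR+Iso had 1.38 and 1.28. SHR thus had more of these transcripts in the upper classes than either other group, and 60 of the 141 were above 0 in all 18 libraries.

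SHR kidneys were also the most alike among themselves over the 141 transcripts. Between 8 and 13 transcripts were listed at 0 in an SHR library, against 17 to 42 in a WKY library and 14 to 52 in an SHR+Iso library. SHR+Iso replicates 2 and 4 had 52 and 48 at 0, and the other 4 treated libraries 14 to 24. Over all listed transcripts the same 2 libraries had 1018 and 906 at 0, against 455 to 644 in the other 4, so they stood apart beyond the 141. The low number in SHR was not seen over all listed transcripts, where SHR libraries had 771 to 971 at 0 and WKY libraries 708 to 1037. It was seen in the 473 assembled transcripts listed for all groups. Of these, 322 were above 0 in all 6 SHR libraries, against 201 in WKY and 185 in SHR+Iso. Transcripts are not independent of each other, and as a description, Pearson correlations of log2 values over the 141 were 0.867 to 0.953 between SHR libraries, 0.659 to 0.841 between WKY libraries and 0.589 to 0.865 between SHR+Iso libraries. SHR kept all 6 libraries within 2-fold for 23 transcripts, WKY for 10 and SHR+Iso for 9. The median SD on the log2 scale was smallest in SHR, at 0.42, and was 0.58 for WKY and 0.64 for treated rats. The 473 assembled transcripts went the same way, with 43, 16 and 10 within 2-fold in SHR, WKY and SHR+Iso. Their median SDs were 0.39, 0.47 and 0.55 in that order. The part of library quality or depth in these differences was not tested.

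**Figure D1:**
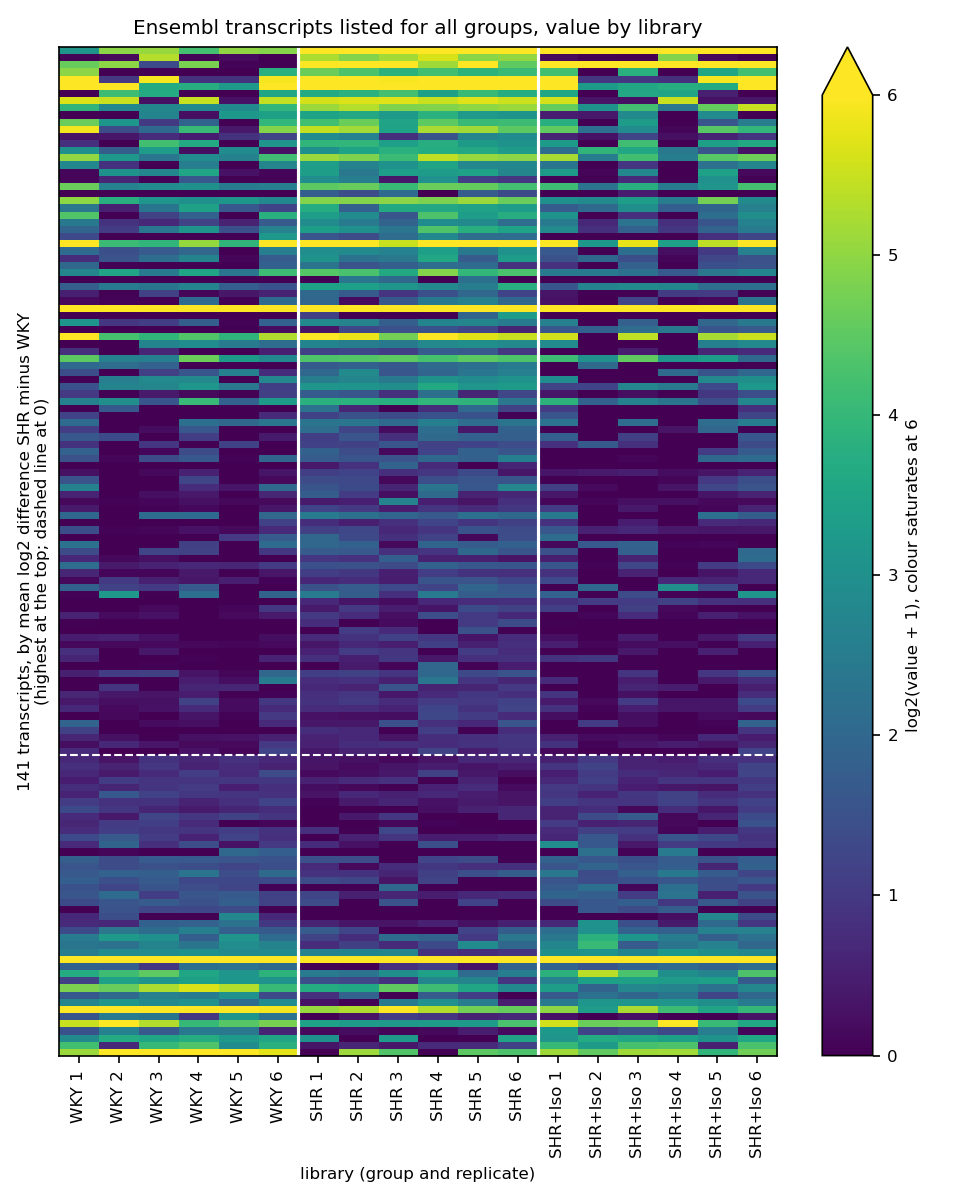
Each row is 1 of the 141 transcripts, ordered by the log2 difference of SHR minus WKY, each column 1 library and the colour log2(value + 1), saturating at 6. The SHR columns look alike from row to row, while SHR+Iso replicates 2 and 4 are dark in many upper rows and have 52 and 48 transcripts at 0.

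The mean in SHR was above that in WKY for 99 of the 141 and below it for 42. Averaged over the 99, log2(value + 1) was 2.11 to 2.53 in SHR libraries and 0.73 to 1.72 in WKY libraries. The WKY libraries were not even: replicates 1 and 6 lay at 1.72 and 1.65 and replicate 5 at 0.73. In SHR+Iso, the same average was 1.46 to 1.78 in replicates 1, 3, 5 and 6 and 0.78 and 0.87 in replicates 2 and 4. Averaged over the 42, values were 1.12 to 1.39 in SHR, 2.01 to 2.36 in WKY and 1.70 to 2.19 in SHR+Iso. SHR+Iso replicates 2 and 4, at 2.19 and 2.05 here, were not low over the 42, although they were the lowest treated libraries over the 99. The 99 and the 42 were split by the SHR and WKY values themselves, and the SHR+Iso list appears to have been made with the same SHR libraries. These averages are therefore a description without a test.

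**Figure D2:**
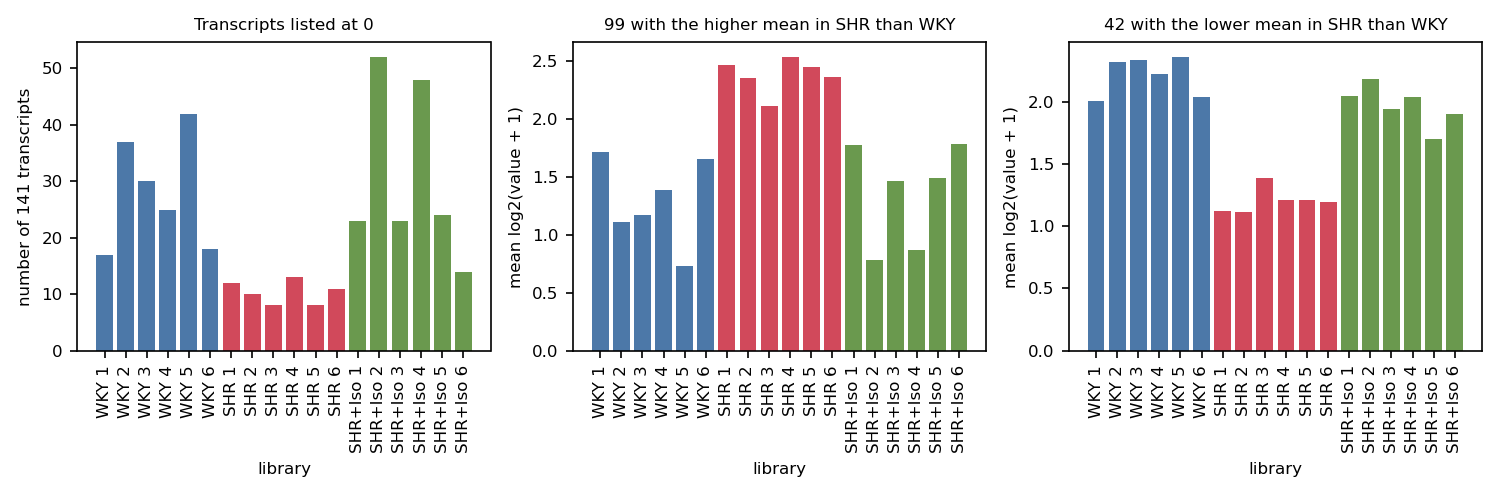
Bars give, for each of the 18 libraries, the number of the 141 transcripts listed at 0 and the mean log2(value + 1) of the 99 transcripts with the higher and the 42 with the lower mean in SHR than in WKY. SHR+Iso replicates 2 and 4 have the most transcripts at 0 and are the lowest treated libraries over the 99.

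The first comparison, SHR against WKY on water, asks how the hypertensive strain's kidney differs from the normotensive one. Strain background and blood pressure differ together and cannot be told apart. Limma was fitted to the transcripts listed for both strains that reached 1 in 6 or more of the 12 libraries. It tested 84 of the 141. At an adjusted p of 0.05 it called 60 of them. SHR was higher in 36 and lower in 24, and the unadjusted p was under 0.05 for 66. Over all 1657 transcripts tested, 82.6% were called, 39% higher and 43.5% lower in SHR. The 71.4% of tested transcripts called here lies below that background. The 154 of 206 assembled transcripts called from those listed for all groups, 74.8%, lie below it as well. The median log2 difference was 1.28 among the 36 and -1.16 among the 24, against 1.23 and -1.22 over all calls.

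The clearest strain difference belonged to ENSRNOT00000020039. Its values were 7.66, 29.7 and 32.6 (lowest, median and highest of 6) in WKY and 553, 739 and 845 in SHR. Every SHR library lay far above every WKY library. The group means were 717 ± 116 and 24.7 ± 9.99 (SD, n = 6 each), and their log2 values differed by 4.92 ± 0.33 (SE; adjusted p = 3.40e-08 by limma). In SHR+Iso its values were 117, 479 and 718. The lowest 2 treated values, 117 and 141, came from replicates 2 and 4, and still lay above all WKY libraries.

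ENSRNOT00000026121 was the other large rise whose groups did not overlap. It had values of 5.75, 6.26 and 14.5 in WKY and 27.4, 31.9 and 39.4 in SHR (lowest, median and highest of 6; log2 difference 1.84 ± 0.28, SE; limma adjusted p = 9.56e-05). The 2 highest WKY values, 14.3 and 14.5, were in replicates 1 and 6, which also had the highest WKY averages over the 99. Treated rats spanned both strains, with 4.25, 20.2 and 43.8.

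Among transcripts lower in SHR, ENSRNOT00000028263 was the only one that was both called and free of overlap. The other transcripts lower without overlap did not reach 1 in 6 libraries and were not tested. Among them, ENSRNOT00000026473 had a larger log2 difference, -1.68, with 0.537 to 5.23 in WKY and 0.0501 to 0.388 in SHR. ENSRNOT00000028263 passed the filter through its WKY values alone, since no SHR value reached 1. Its values were 1.40, 1.72 and 1.98 in WKY and 0.109, 0.734 and 0.969 in SHR (log2 difference -0.72 ± 0.15, SE; limma adjusted p = 0.00143). In 5 of the 6 treated libraries it lay at 1.99 to 2.86, above every WKY library, and in replicate 5 it was 0.528. ENSRNOT00000088853 had the largest fall of the transcripts called, but its groups overlapped. It was 33.5, 99.4 and 171 in WKY and 0, 19.3 and 33.8 in SHR, with SHR replicates 1 and 4 listed at 0 (log2 difference -3.44 ± 0.93, SE; limma adjusted p = 0.00677). The other 4 SHR libraries had 19.0 to 33.8. Without SHR replicate 1 or 4 the difference was -2.83 in either case.

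Few of the 141 transcripts separated the strains library by library. The 6 and 6 values did not overlap for 9 that were higher and 4 that were lower in SHR. Over all 4005 transcripts listed for both strains these shares were 12.8% and 15.6%, and 28.3% in both directions. In both directions it was 9.22% of the 141 and 12.5% of the 473 assembled transcripts listed for all groups. Of the 13, only 4 passed the filter: ENSRNOT00000020039, ENSRNOT00000026121, ENSRNOT00000028263 and ENSRNOT00000012939. All 4 were called, but the calls rest on the same values as the lack of overlap and add no separate support. ENSRNOT00000012939 was at 0 to 1.24 in WKY and 1.26 to 2.03 in SHR, so its groups barely separated. Its SHR values alone were enough to pass the filter. The count rose from 13 to 28 without WKY replicate 1, to 21 without WKY replicate 6 and to 23 without SHR replicate 3.

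Some transcripts were listed at 0 throughout a group. Of the 141, 6 transcripts were listed at 0 in all 6 WKY libraries and 0 transcripts in all 6 SHR libraries. Of the 473 assembled transcripts listed for all groups, 40 were at 0 in all WKY and 10 in all SHR libraries. Of the 6, ENSRNOT00000075985 alone was above 0 in all 6 SHR libraries, at 0.148 to 0.786, and it was again above 0 in all 6 treated libraries, at 0.757 to 1.24. Of the same 6, 2 were also listed at 0 in all 6 SHR+Iso libraries, ENSRNOT00000003150 and ENSRNOT00000007398, so that any signal was in untreated SHR. An exact 0 can be a failed estimate, so no fold change is given against such a group.

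The second comparison, treated against untreated SHR, asks what isoliensinine changed. Of the 141, 41 had a higher and 100 a lower mean after treatment. Limma was fitted to those of the 614 transcripts listed for both groups that passed the same filter. It tested 81 of the 141 and called 38. Treated rats were higher in 12 and lower in 26, and the unadjusted p was under 0.05 for 64. Over all 289 transcripts tested, 42.2% were called, 12.1% higher and 30.1% lower. The 46.9% called here is near that background, and assembled transcripts had 40.4%. The median log2 difference was 1.30 among the 12 and -1.64 among the 26, against 1.29 and -1.46 over all calls.

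This result was less firm than the strain comparison. Quantile normalization moved the median of all tested transcripts from -0.89 to -0.29 and turned the balance round: 29 of the 141 were called, 21 higher and 8 lower, and 20 of these were among the 38. Without SHR+Iso replicates 2 and 4, 10 were called, 2 higher and 8 lower, where 10% of all tested transcripts were. The 38 became 19 without either of these replicates singly and 60 without SHR+Iso replicate 6. They became 22, 24, 17, 20 and 25 without SHR replicates 1, 2, 4, 5 and 6.

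**Figure D3:**
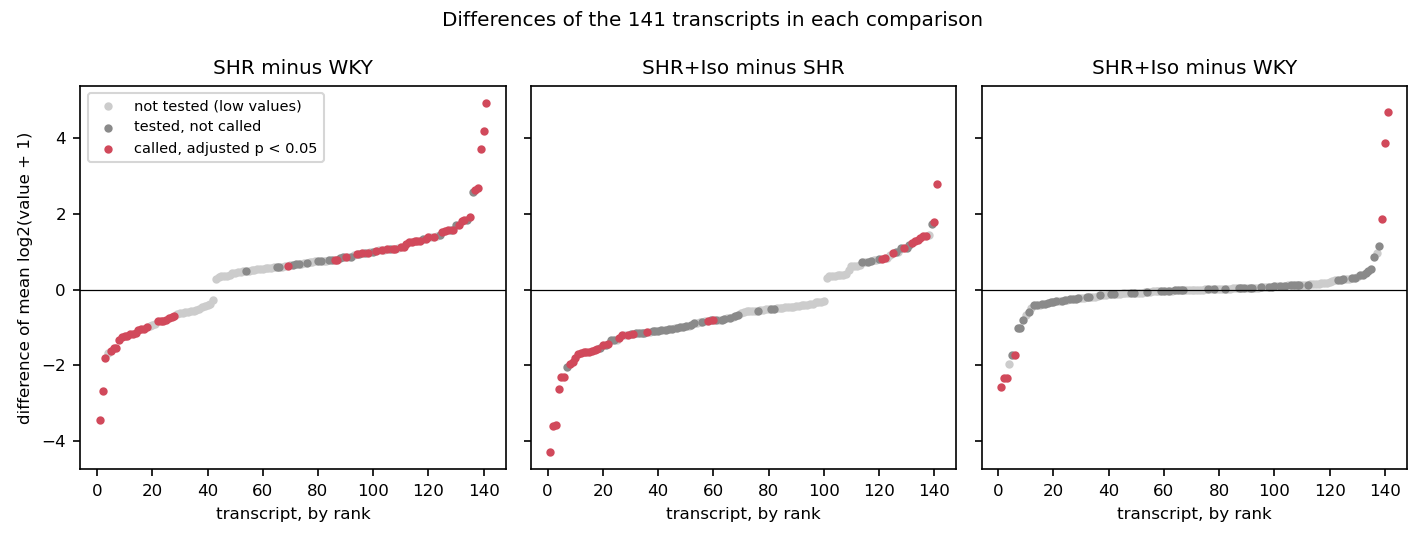
Each point is 1 of the 141 transcripts, ranked by its difference of mean log2(value + 1) in 3 comparisons. Points are red where limma called them at an adjusted p under 0.05 and dark grey where it did not. They are light grey where too few values reached 1 for a test. No transcript lies near 0 in the 2 comparisons with SHR, while 94 lie within 0.25 of 0 between SHR+Iso and WKY and 7 are called.

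The largest rises after treatment without overlap were modest in level. ENSRNOT00000029728 had values of 0, 1.36 and 2.40 in SHR and 2.59, 4.41 and 7.19 in SHR+Iso (lowest, median and highest of 6). All treated libraries lay above all untreated ones, and the WKY values of 1.53, 2.94 and 5.04 overlapped both. The log2 difference was 1.38 ± 0.41 (SE; limma adjusted p = 0.0217), and its limma adjusted p was 0.0531 without SHR replicate 4 and 0.0547 without SHR+Iso replicates 2 and 4. ENSRNOT00000015667 was 0, 0.802 and 1.60 in SHR and 1.68, 1.91 and 2.07 in SHR+Iso (log2 difference 0.83 ± 0.30, SE; limma adjusted p = 0.0411). Its call was lost in 9 of 19 alternative settings, among them leaving out SHR replicate 3, 4, 5 or 6 or SHR+Iso replicate 2, 3 or 4, with a limma adjusted p of at most 0.0879. The treated libraries were close together, and the SHR libraries were not: replicates 5 and 6 were listed at 0 and replicate 3 was at 0.249.

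Among transcripts lower after treatment, ENSRNOT00000070897 was the steadier example. It had 11.5, 18.3 and 28.6 in SHR and 2.19, 4.34 and 5.52 in SHR+Iso. Every treated library lay below every untreated one, and WKY lay between and overlapped both at 4.13, 8.02 and 16.4. The log2 difference was -1.91 ± 0.41 (SE; limma adjusted p = 0.00614), and it was called in all 20 alternative settings, at -1.28 after quantile normalization. ENSRNOT00000027630 was 7.54, 9.23 and 13.2 in SHR. In SHR+Iso it was 6.36 and 6.47 in replicates 3 and 5 and at most 0.382 in the other 4 (log2 difference -2.30 ± 0.56, SE; limma adjusted p = 0.00914). The same 2 levels occurred in untreated WKY, at 5.49 to 9.72 in replicates 3, 5 and 6 and at most 0.195 in the other 3. The difference was -1.56 after quantile normalization, and the limma adjusted p was 0.0545 without SHR+Iso replicates 2 and 4.

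The 6 and 6 values did not overlap for 6 transcripts higher and 5 lower in SHR+Iso than in SHR. Over the 614 transcripts this held for 4.23% in each direction, and the 7.80% of the 141 in both directions is near the 8.47% of all. The count of 11 was 19 and 17 without SHR replicates 3 and 6, and 17 and 18 without SHR+Iso replicates 1 and 6. The same SHR libraries serve the comparisons by strain and by treatment, and the differences for the same transcript are not independent.

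**Figure D4:**
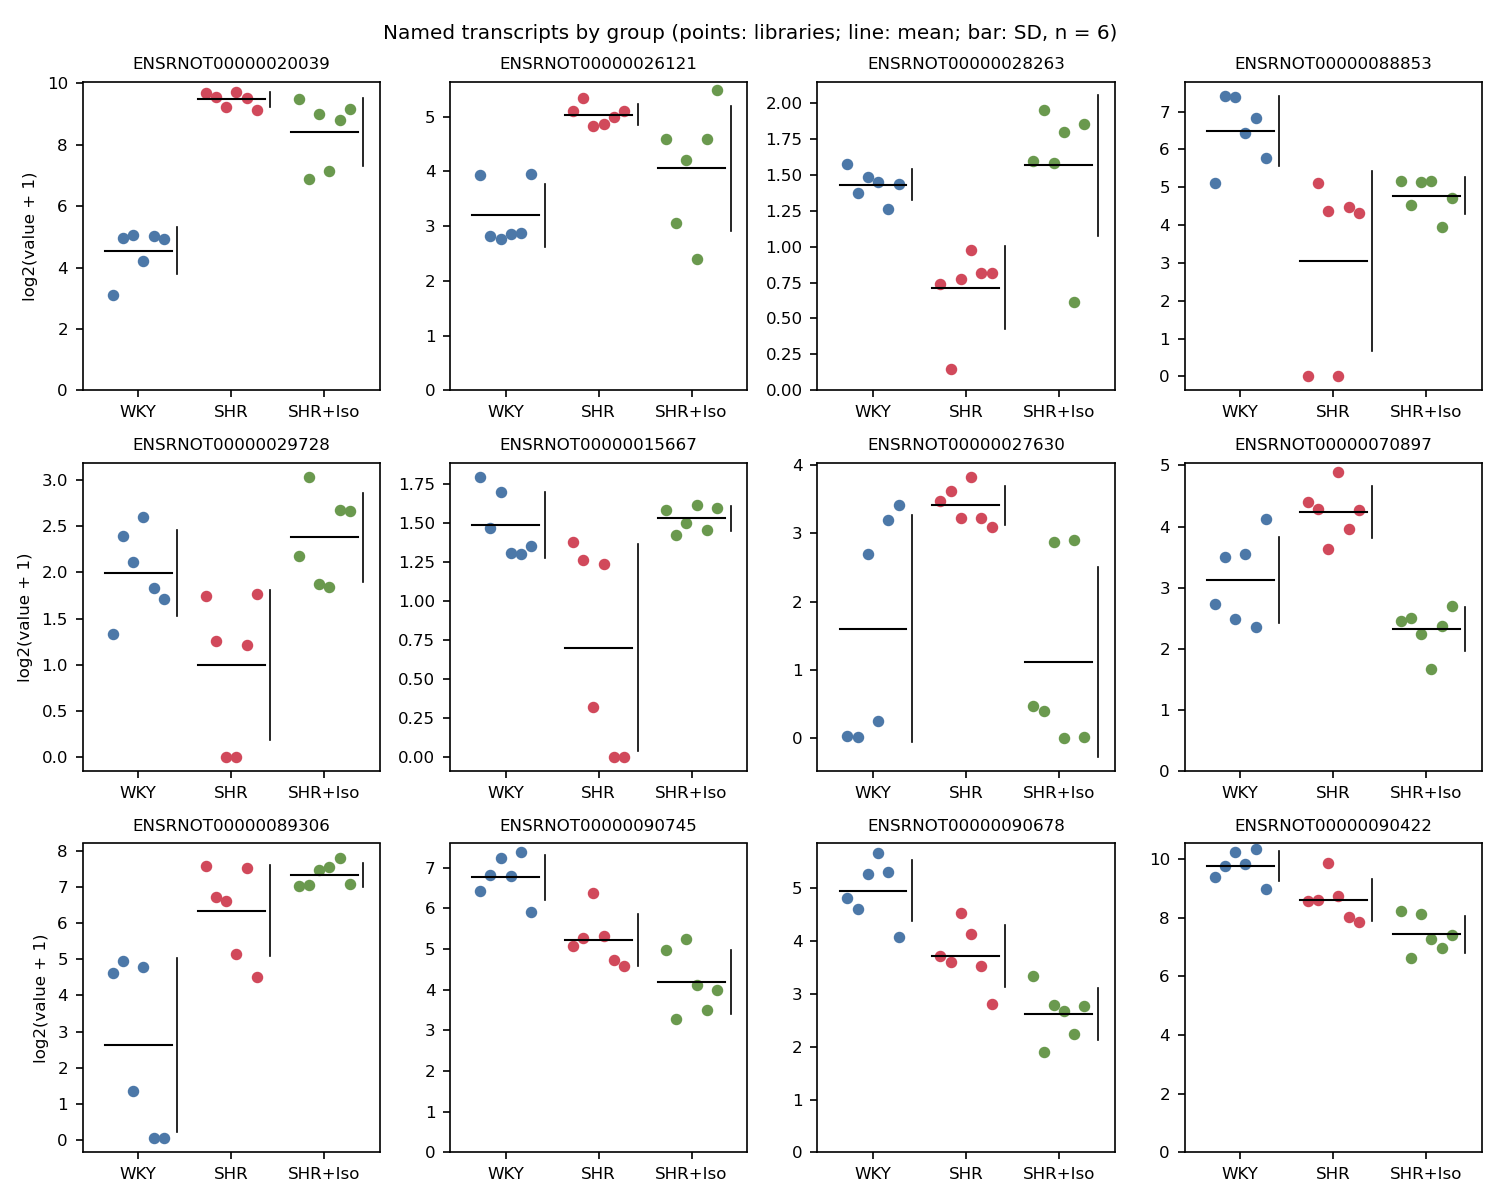
Points are libraries, lines group means and bars SDs of log2(value + 1) for 12 named transcripts (n = 6 per group). ENSRNOT00000020039 separates the strains, ENSRNOT00000070897 separates treated from untreated SHR, and ENSRNOT00000090745, ENSRNOT00000090678 and ENSRNOT00000090422 step down from WKY to SHR to SHR+Iso.

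The third comparison, SHR+Iso against WKY, sets treated hypertensive rats against the normotensive strain, so strain and treatment differ together. Of 72 transcripts tested, limma called 7. Treated rats were higher in 3 and lower in 4, and the unadjusted p was under 0.05 for 8. Over all 255 tested, 11% were called, 4.71% higher and 6.27% lower, and the 9.72% called here is near that background. The 6 and 6 values did not overlap for 4 transcripts in each direction, where 2.61% of the 614 were higher and 1.79% lower. The count of calls was 6 to 9 in all alternative settings. A missed threshold does not show that treated rats had the WKY level.

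All 3 transcripts higher in treated rats than in WKY had no overlap between these groups. ENSRNOT00000089306 was 0.0306, 12.5 and 30.0 in WKY, 21.7, 101 and 190 in SHR and 130, 157 and 225 in SHR+Iso (lowest, median and highest of 6). Treated rats lay above every WKY library, and SHR overlapped both (SHR+Iso minus WKY log2 difference 4.71 ± 0.92, SE; limma adjusted p = 0.00286). Its SHR minus WKY difference was 3.71 ± 0.99 (SE; limma adjusted p = 0.00622). ENSRNOT00000020039, described above, had a SHR+Iso minus WKY difference of 3.87 ± 0.54 (SE; limma adjusted p = 0.000214), and of 4.57 without SHR+Iso replicates 2 and 4. The remaining one, ENSRNOT00000072384, was listed at 0 in 5 WKY libraries and at 0.165 in the other, and then 0.245 to 1.85 in untreated and 2.05 to 4.26 in treated SHR. It passed the filter of this comparison through the treated libraries alone.

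Transcripts lower in treated rats than in WKY included 3 whose group medians stepped down from WKY to SHR to SHR+Iso. ENSRNOT00000090422, with the highest mean over all 18 libraries, had 506, 882 and 1290 in WKY, 228, 381 and 920 in SHR and 97.0, 161 and 296 in SHR+Iso. ENSRNOT00000090745 had 58.9, 111 and 166, then 23.1, 35.3 and 82.1, then 8.78, 15.7 and 36.9 in the same order of groups. ENSRNOT00000090678 had 15.8, 32.3 and 49.3, then 6.01, 11.6 and 22.1, then 2.73, 5.61 and 9.09. In all 3, every treated library lay below every WKY library, SHR replicate 3 was the highest SHR library and SHR+Iso replicate 2 the lowest of all 18.

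The sizes of these differences were alike. SHR+Iso minus WKY was -2.32 ± 0.36, -2.57 ± 0.41 and -2.33 ± 0.34 (SE; limma adjusted p = 0.000371, 0.000541 and 0.000290) for ENSRNOT00000090422, ENSRNOT00000090745 and ENSRNOT00000090678. SHR minus WKY was -1.15, -1.53 and -1.23, each called (limma adjusted p = 0.0110, 0.00198 and 0.00727). SHR+Iso minus SHR was -1.17, -1.04 and -1.10, with limma adjusted p of 0.0467, 0.0709 and 0.0508, so that only the first was called. Its call was lost in 12 of 20 alternative settings, among them leaving out SHR replicate 1, 2, 3, 4 or 5 or SHR+Iso replicate 2, 4 or 5. The same difference of ENSRNOT00000090678 gained a call in 7 of the 20 settings and that of ENSRNOT00000090745 in 1. Quantile normalization brought the SHR+Iso minus SHR differences to -0.31, -0.35 and -0.45, with none called, while the other 6 differences of these transcripts kept their calls in every setting run. Whether these IDs share a gene or reads is not known from the files. The last of the 4, ENSRNOT00000088853, described above, had 14.5 to 34.8 in treated rats and overlapped WKY, with a SHR+Iso minus WKY difference of -1.71 ± 0.44 (SE; limma adjusted p = 0.0190). Its call was lost in 6 of 20 alternative settings, among them leaving out WKY replicate 2, 3 or 5 or SHR+Iso replicates 2 and 4, with a limma adjusted p of at most 0.377.

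A recurring pattern was a transcript at 2 separate levels within 1 group. Counted here, after the values were seen, is any transcript whose sorted values in a group hold a step of at least 10-fold with the value above the step at 1 or more. WKY had 36 such transcripts of the 141, SHR+Iso 40 and SHR 15, and for 60 in at least 1 group. In 21 it occurred in WKY and in SHR+Iso but not in SHR. Assembled transcripts listed for all groups had it in 19.2%, 22.8% and 10.8% of 473 in WKY, SHR+Iso and SHR, and the 141 in 25.5%, 28.4% and 10.6%.

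The 4 of the 21 with the highest SHR means show the pattern most plainly. ENSRNOT00000045504 was 60.6 to 72.6 in all 6 SHR libraries. In WKY it was 64.2, 59.5 and 59.9 in replicates 1, 3 and 6 and 0.989, 0.814 and 0.835 in replicates 2, 4 and 5. In SHR+Iso it was 66.0, 59.3 and 65.4 in replicates 1, 5 and 6 and 0.921, 0.931 and 0.765 in replicates 2, 3 and 4. Libraries thus had either the SHR level or about 1, and none between.

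ENSRNOT00000089205 was 45.1 to 51.7 in SHR. It was 42.9 to 50.4 in WKY replicates 1, 2, 4 and 6 and 0.213 and 0.215 in replicates 3 and 5. In SHR+Iso it was 47.8 and 45.1 in replicates 1 and 4 and 0.204 to 0.285 in the other 4. Again no library lay between the levels, but the libraries at the low level were not the same ones as for ENSRNOT00000045504.

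ENSRNOT00000016447 was 171 to 760 in SHR. It was 442 to 726 in WKY replicates 1, 2 and 6 and 8.55 to 12.3 in replicates 3, 4 and 5, and in SHR+Iso it was 548 and 436 in replicates 1 and 6 and 8.62 to 12.3 in the other 4. ENSRNOT00000089762 was 28.6 to 48.5 in SHR, 39.2 in WKY replicate 3 alone and 28.7 in SHR+Iso replicate 4 alone, and at most 0.122 in the other 5 WKY and the other 5 treated libraries. WKY replicate 3 and SHR+Iso replicate 4, high for this transcript, were at the low level for ENSRNOT00000016447.

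**Figure D5:**
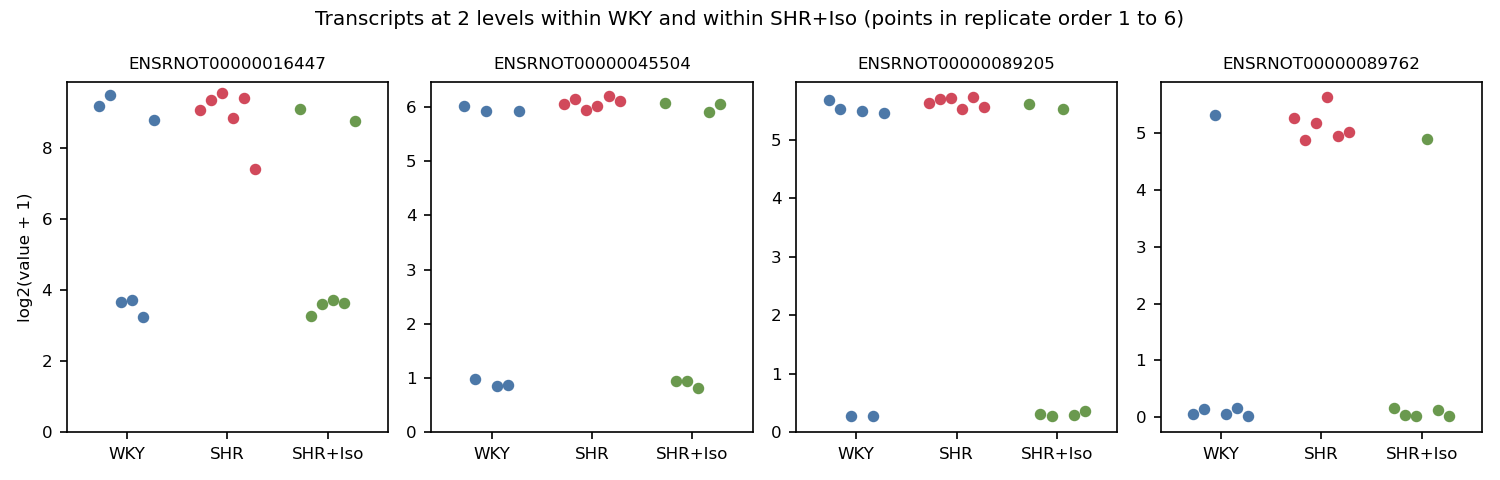
Points are the log2(value + 1) of single libraries, in replicate order within each group, for 4 transcripts. WKY and SHR+Iso libraries fall on 2 separate levels in each panel, and the 6 SHR libraries lie at the upper one, with SHR replicate 6 of ENSRNOT00000016447 lower at 171.

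These 4 had the 4 largest falls that limma called between SHR+Iso and SHR, at -4.28, -3.60, -3.57 and -2.62 for ENSRNOT00000089762, ENSRNOT00000016447, ENSRNOT00000089205 and ENSRNOT00000045504 (limma adjusted p = 0.000945, 0.0134, 0.0117 and 0.0381). Large falls follow from the choice of transcripts with high SHR means and some treated libraries at a low level. The ranking and p-values of these 4 are therefore no separate evidence. None of the 4 was free of overlap, since at least 1 treated library sat at the SHR level. The call of ENSRNOT00000045504 was lost in 12 of 20 alternative settings, among them leaving out any SHR library but replicate 3, or SHR+Iso replicate 2, 3 or 4. Without SHR+Iso replicates 2 and 4 its difference was -1.33 and that of ENSRNOT00000016447 -2.67, and limma called neither (adjusted p = 0.198 and 0.0887). The differences of ENSRNOT00000089762 and ENSRNOT00000089205 were called in all 20, the first at -5.08 without SHR+Iso replicate 4 and the second at -4.28 and -4.27 without SHR+Iso replicate 1 or 4. That of ENSRNOT00000016447 was -4.35 and -4.28 without SHR+Iso replicate 1 or 6. The rise of the same kind was ENSRNOT00000028431, with the highest log2 difference called, 2.79 (limma adjusted p = 0.00488). It was 0.274 to 1.26 in SHR, 8.70 to 19.0 in 5 treated libraries and 0.466 in SHR+Iso replicate 5, and in WKY it was 6.61 to 19.4 in 5 libraries and 0.585 in replicate 2.

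Transcripts at 2 levels in a compared group made up 39 of the 81 tested between SHR+Iso and SHR, and 18 of the 38 called, 5 higher and 13 lower. Their part among the calls was thus close to their part among those tested. For strain, 20 of 37 such transcripts were called, against 40 of the other 47, a difference that was not tested. Between SHR+Iso and WKY 1 of 31 was called, against 6 of the other 41. For the 4 transcripts shown, the WKY and SHR+Iso means describe how many libraries sat at each level rather than a level that any library had. The count takes any single step, so this does not hold for all. In WKY, ENSRNOT00000066197 was at 0 in replicate 5 and at 1.77 to 4.89 in the other 5, around a mean of 2.52.

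The low level fell unevenly on the libraries. SHR+Iso replicates 2 and 4 were each on the low side for 30 of the 40 transcripts with 2 levels in that group, and the other 4 for 14 to 20. In WKY, replicate 5 was on the low side for 27 of 36 and replicates 1 and 6 for 14 and 12. In SHR the numbers were 2 to 8 of 15. The part of depth, genotype or read assignment in this pattern was not tested.

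Among the 60 transcripts above 0 in all 18 libraries, the smallest coefficient of variation, 0.419, belonged to ENSRNOT00000010142. Its values were 4.75 to 7.01 in WKY and 5.56 to 8.20 in SHR+Iso, but in SHR it was 5.34 to 5.61 in replicates 1, 2 and 3 and 0.729 to 0.877 in replicates 4, 5 and 6. The SHR values lay in separate ranges, with a step below the 10-fold used to count 2 levels. Its SHR minus WKY difference was -1.07 ± 0.40 (SE; limma adjusted p = 0.0294), although 3 of its 6 SHR values lay inside the WKY range, and the call was lost without SHR replicate 4, 5 or 6. Next came ENSRNOT00000077797, too low to test, at 0.244 to 0.840 in WKY and 0.371 to 0.981 in treated rats, with SHR lower at 0.0863 to 0.579 but overlapping both.

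Whether a transcript could be tested depended on its level. Of the 58 transcripts with a mean under 1 over the 18 libraries, 6, 4 and 2 could be tested for strain, for treatment and for treated rats against WKY, and 3, 2 and 0 were called. Of the 24 with a mean of 10 or more, 24, 24 and 23 were tested and 21, 12 and 6 called. The 59 in between had 36 of 54, 24 of 53 and 1 of 47 called. Among those tested, the called part was similar at all levels for treatment. It was largest at the highest level in the other comparisons. The parts by level over all transcripts are not given. No statement on the 58 low transcripts as a class follows from the few that passed the filter.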

How the data were processed

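Ribosomal RNA was removed from kidney total RNA before library preparation, per the labels' protocols. The deposited files give a normalized signal that the authors computed, 1 value per transcript and library, on an unstated scale. The submitters' processing notes name limma. The aligner, quantifier, build and annotation were not given in sources used here.

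Groups and replicate numbers come from the titles. Limma 3.58.1 (R 4.3.3) was fitted to log2(value + 1), its prior trended and robust. Each comparison used its own 12 libraries and all transcripts listed for both groups that reached 1 in 6 or more of them. P-values are two-sided and Benjamini-Hochberg adjusted over all transcripts tested, at 0.05. The test was run on simulated normal values with the same spread in both groups. The real groups differ in spread and hold zeros and steps, so that run gives no error rate for the calls here. No library was left out of the results unless stated.

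The transcripts and lists were chosen with earlier results of these data known. Named were, per comparison, the 2 largest rises and 2 largest falls that limma called, those without overlap first, then the 2 highest means and the 2 smallest coefficients of variation over 18 libraries among transcripts above 0 in all. Further IDs were chosen after their values were seen. Gene and cell marker lists could not be applied because 0 IDs had a gene name. Alternatives were another scaling, other filters, a pseudocount of 0.1, a flat prior, 1 model for all groups, a block for the replicate number and each library left out.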

Additional observations from a re-analysis of the deposited data

Results flagged for a closer look

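In 6 of 54 groups of 6 libraries checked for the named transcripts, 1 library stood far from the other 5 on the log2 scale. The cut used marks about 1 in 20 groups when values are normal. These values hold zeros and steps, and the transcripts were picked by their values, so that rate need not hold here. Of the 6, 3 belong to the transcripts shown for their 2 levels, which were chosen after their values were seen, and without those the count was 3 of 42. ENSRNOT00000028263 was at 0.109 in SHR replicate 2, against 0.673 to 0.969 in the others, and at 0.528 in SHR+Iso replicate 5, against 1.99 to 2.86. ENSRNOT00000010142 was at 4.75 in WKY replicate 1, against 6.33 to 7.01. ENSRNOT00000016447 was at 171 in SHR replicate 6, against 460 to 760. ENSRNOT00000089762 was at 39.2 in WKY replicate 3, against at most 0.122, and at 28.7 in SHR+Iso replicate 4, against at most 0.112.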

How the results depend on the processing

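Beside the 60 transcripts called between SHR and WKY, 100 were called with no filter and 33 when the filter was set at 5, and 44 to 64 with 1 library left out. The 38 called between SHR+Iso and SHR became 60 when no filter was used, 23 when it was set at 5, 19 at a pseudocount of 0.1, 17 to 60 with 1 library left out and 10 without SHR+Iso replicates 2 and 4, a choice made after seeing the data. Filters change how many transcripts are tested; the cause of the other changes was not tested. The 7 between SHR+Iso and WKY stayed at 6 to 9. The fit over all 3 groups called 55, 48 and 7, the 55 being 28 higher and 27 lower and the 48 being 24 and 24. Without WKY replicate 5 the strain calls were 23 higher and 21 lower. Transcripts without overlap numbered 14 to 28, 12 to 19 and 8 to 9 with 1 library left out. Of 28 differences printed in the text and recomputed, 0 changed direction in any setting run, and 8 of the 26 called lost the call in at least 1. The differences recomputed beyond those the naming rule gave were added after the data were seen. Replicate numbers showed no clear pairing of the libraries. Deviations of same-numbered libraries correlated at -0.07 to 0.14, -0.04 to 0.05 and -0.09 to 0.23 in the 3 comparisons, and 2, 0 and 1 of 6 correlated best with their own number. The same-number means were 0.037, 0.008 and 0.082, against -0.007, -0.001 and -0.017 for other pairs. A shared batch or order was not tested. With the replicate number as a block, 61, 37 and 6 transcripts were called, ENSRNOT00000088853 (SHR+Iso against WKY) and ENSRNOT00000090422 (SHR+Iso against SHR) being lost at limma adjusted p of 0.0762 and 0.0565. Transcripts at 2 levels numbered 40, 19 and 46 in WKY, SHR and SHR+Iso with a 5-fold step and 32, 11 and 30 with a 20-fold step. Depth is unknown, so no limit of detection is given.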
